A study of Homo sapiens with 29 samples.

Results

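The 10 genes described here encode amino acid transporters of the plasma membrane: SLC7A11, SLC7A5, SLC3A2, SLC43A1, SLC1A5, SLC1A4, SLC1A3, SLC38A1, SLC38A2 and SLC7A1. They were taken by name, with earlier results of these data known. Their counts beside the shares of all genes are therefore descriptions and not a test of the set. They are 10 of the 63677 features in each of 2 count tables, and all 10 were tested in every comparison. The series holds 29 RNA-seq libraries from 2 human prostate cancer cell lines and asks how transcription changes when the DNA repair kinase DNA-PK is inhibited. C4-2, a castration-resistant derivative of LNCaP, gave 24 libraries: 3 from untreated cells (Ctrl), 3 with enzalutamide (Enza), 3 with each of the kinase inhibitors NU7441, CC-115 and CC-223, and 3 with each inhibitor and Enza together (NU7441+Enza, CC-115+Enza, CC-223+Enza). 22Rv1, a castration-resistant line derived from a prostate xenograft, gave 3 Control and 2 CC-115 libraries. Each agent was given at 1 µM for 24 h, alone or together, and every group, controls included, grew in medium that contained hormones. The labels name no genetic change and no vehicle for the untreated groups. NU7441 is known as a DNA-PK inhibitor, CC-115 as one that hits the growth kinase mTOR as well as DNA-PK, CC-223 as an mTOR kinase inhibitor, and enzalutamide as an antagonist of the androgen receptor.

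Amino acid transporters work in a few linked classes. SLC3A2 (4F2hc, CD98) is a single-pass heavy chain that carries light chains to the membrane. Among these light chains are SLC7A5 (LAT1), which exchanges large neutral amino acids such as leucine, and SLC7A11 (xCT), which takes up cystine in exchange for glutamate and so feeds glutathione synthesis. SLC43A1 (LAT3) moves branched-chain amino acids without a heavy chain and is known as an androgen-regulated gene in the prostate. SLC1A5 (ASCT2) and SLC1A4 (ASCT1) are sodium-dependent exchangers of small neutral amino acids, ASCT2 with glutamine among its main substrates, and SLC1A3 (EAAT1) takes up glutamate and aspartate. SLC38A1 (SNAT1) and SLC38A2 (SNAT2) drive glutamine and other neutral amino acids into the cell with sodium, and SLC7A1 (CAT1) carries arginine and lysine. Several of these genes are textbook targets of ATF4, the transcription factor made when amino acids are short, which mTORC1 also raises.

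Promoter sequence was available for 9 of the 10 genes, all but SLC7A11, as 18 windows of 300 bases around annotated starts (250 before, 50 after; RefSeq, GRCh38.p14). The composite site at which ATF4 pairs with a C/EBP factor, searched as TGATGNAA on both strands, was found in 6 of the 9 genes and in 6 of the 18 windows. Over all promoters of the same length it was found in 3.62% of 35116 windows and in 4.46% of 27305 genes. The stretches that hold it are shown because these genes are read below against ATF4; capitals mark the match, and each runs 5′ to 3′ on the strand of its gene.
SLC1A4, chr2:64989382-64989409, plus strand: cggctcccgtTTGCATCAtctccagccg
SLC1A3, chr5:36596338-36596415, plus strand: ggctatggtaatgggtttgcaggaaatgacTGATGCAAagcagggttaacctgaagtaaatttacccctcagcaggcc
SLC3A2, chr11:62881726-62881748, plus strand: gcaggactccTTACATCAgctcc
SLC38A1, chr12:46266503-46266530, minus strand: cagacccgaaTGATGAAAagggatcagc
SLC7A1, chr13:29595664-29595691, minus strand: ggcgcactgcTGATGAAAcctggcgccg
SLC1A5, chr19:46784864-46784951, minus strand: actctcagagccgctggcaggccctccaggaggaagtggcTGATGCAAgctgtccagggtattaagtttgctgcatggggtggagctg

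The matches lie between 220 bases before (SLC1A3) and 37 bases after (SLC3A2) an annotated start, and which start these cells use was not measured. The E-box CACGTG, a palindrome bound by MYC and related factors, was found in 3 of the 9 genes (SLC7A5, SLC43A1 and SLC1A5) and in 8.77% of all genes. By window it was found in 3 of the 18, against 7.26% of all windows. SLC7A5 and SLC43A1 moved in opposite directions under enzalutamide, and a link of the E-box to this was not tested. The site of SLC1A5 is not printed. In SLC7A5 and SLC43A1 the E-box reads as follows, with the match in capitals.
SLC7A5, chr16:87869592-87869677, minus strand: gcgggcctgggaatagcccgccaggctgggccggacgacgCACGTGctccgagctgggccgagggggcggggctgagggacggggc
SLC43A1, chr11:57515769-57515854, minus strand: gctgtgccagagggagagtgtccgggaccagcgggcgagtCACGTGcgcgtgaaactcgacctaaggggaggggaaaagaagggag

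The antioxidant response core TGACNNNGC was present in 5 of the 9 genes against 16.06% of all genes, and in 5 of the 18 windows against 13.35%. The hexamer AGAACA of the androgen receptor motif was present in 1 gene (SLC38A1) against 17.54%, and in 1 of the 18 windows against 14.79%. The 9 genes have more windows per gene than genes in general, which raises their share by gene. The windows of the other 8 genes, SLC43A1 included, do not hold AGAACA, which says only that these letters are not in them. The TGATGNAA and TGACNNNGC patterns were searched on both strands without regard to overlap between them. A match is a description of the sequence and not evidence of binding.

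Libraries held 29580404 to 44864694 counts in C4-2 and 31606952 to 44912917 in 22Rv1, and the 10 genes took 0.151 to 0.3% of them in C4-2 and 0.103 to 0.134% in 22Rv1. Raw counts per library ran from 57 for SLC1A3 at its lowest to 39803 for SLC38A2 at its highest, so SLC1A3 carries the largest counting error. Nothing in the labels says that replicates came from separate cultures, so the p-values measure only the spread between these samples. In C4-2 the first Enza library and the first CC-115+Enza library stood apart, with 2433 and 2643 genes more than 1 log2 unit from the mean of their group mates against 220 to 1163 genes in the other libraries; these libraries also enter the spread of the other C4-2 comparisons, and the calls that change without them are given here or among the dependences on processing. The prostate luminal markers summed to 3296 to 9537 CPM in C4-2 (CPM being counts scaled to a common library size) and 2173 to 2596 in 22Rv1. The 14 markers of other cell types summed to 8.75 to 19.6 and 53.8 to 68.4 CPM, the latter mostly SYP (45.9 to 64.1 CPM). Of the endothelial markers PECAM1 was at 0 throughout and CDH5 at most at 0.0962 CPM in C4-2 and 0.023 CPM in 22Rv1. VWF read 0.571 to 4.75 CPM in C4-2 and 0.023 to 0.127 CPM in 22Rv1. KLK3 (PSA), an androgen receptor target, was lower with Enza than in Ctrl by 1.59 ± 0.12 on the log2 scale (SE, edgeR adjusted p = 1.39e-10).

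Untreated C4-2 cells carried the 10 transporters at very different levels. They were compared per kilobase of annotated exon. Which transcripts these cells make was not measured, so the order of the genes rests on those lengths. SLC38A2 was the most abundant with 70.8 ± 3.11 CPM per kb (SD, n = 3). SLC43A1 (49.3 ± 1.03), SLC1A5 (43.8 ± 2.39), SLC3A2 (40.7 ± 0.178) and SLC38A1 (40.6 ± 1.94 CPM per kb) followed. SLC7A1 stood at 33.5 ± 3.99, SLC7A5 at 24 ± 3.23 and SLC7A11 at 17.9 ± 0.36 CPM per kb. The lowest were SLC1A4 at 2.38 ± 0.0603 and SLC1A3 at 1.05 ± 0.115 CPM per kb. The heavy chain SLC3A2 was therefore more abundant per kb than either light chain. In bulk RNA from a culture, fewer cells that express a gene and less RNA per cell cannot be told apart.

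**Figure D1:**
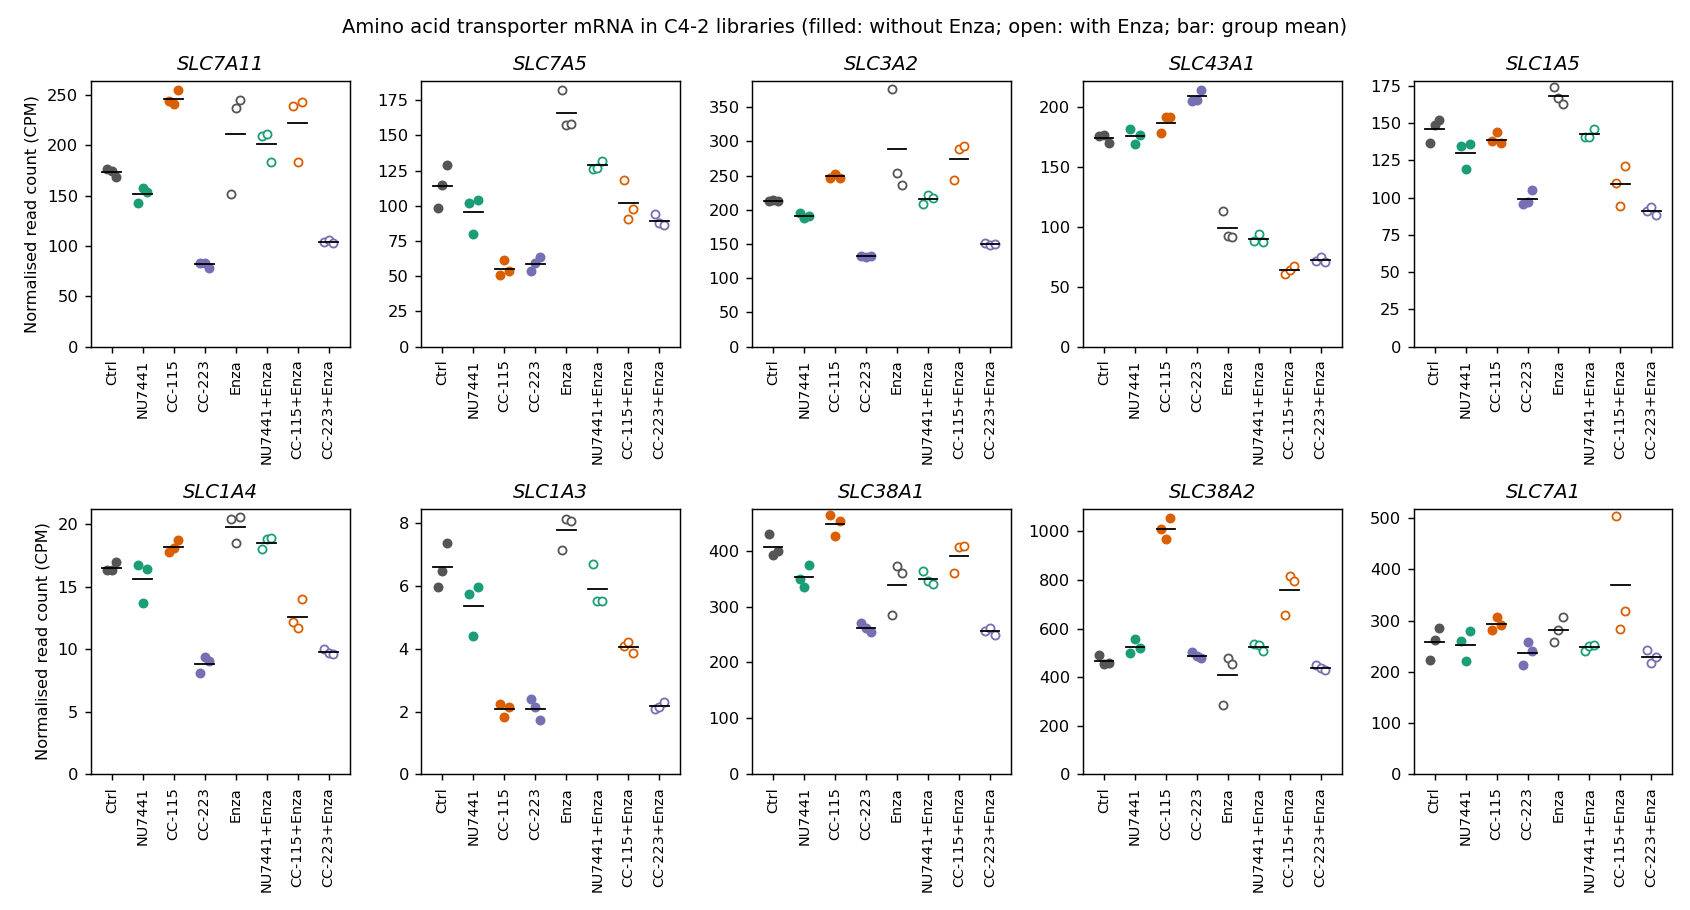
Level of each of the 10 transporter genes in the 24 C4-2 libraries, in CPM on linear axes that start at 0, by treatment group; each point is 1 library, filled without Enza and open with it, and each bar is a group mean. SLC43A1 separates into the 4 groups without Enza (169 to 214 CPM) and the 4 groups with it (60.6 to 113 CPM), while SLC7A11 is lowest in the 2 CC-223 groups.

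CC-115 moved the transporters in both directions. SLC38A2 and SLC7A11 rose, SLC7A5 and SLC1A3 fell, and the other 6 did not pass the test (edgeR quasi-likelihood test, Benjamini-Hochberg adjusted p under 0.05 over 22860 genes). So 2 of 10 were higher and 2 of 10 lower, while 27.6% of all genes tested were higher and 26% lower. The median change of the 10 was 0.14 and that of all genes 0.03 on the log2 scale. Scaled on protein-coding genes, 3 of the 10 were higher and 2 lower. The share of higher calls among all called genes then went from 51.5% to 55.7%. SLC38A2, the inducible glutamine carrier, read 491, 453 and 458 CPM in Ctrl and 1010, 967 and 1055 CPM with CC-115, a log2 difference of 1.11 ± 0.13 (SE, adjusted p = 8.49e-08). The groups lay far apart, and no other condition brought SLC38A2 to this level. Its paralog SLC38A1, on the same chromosome, read 429, 392 and 399 CPM in Ctrl and 464, 426 and 453 CPM with CC-115, and the difference of 0.14 ± 0.10 was not called (adjusted p = 0.259), though it was without the 2 libraries that stand apart (adjusted p = 0.0225). The ratio of SLC38A2 to SLC38A1, per kb, was 1.74 to 1.75 in Ctrl and 3.3 to 3.53 with CC-115.

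The light chains of SLC3A2 parted under CC-115. SLC7A5 (ENSG00000103257, chr16:87863629-87903094 in hg19) read 98.2 to 129 CPM in the 3 Ctrl libraries (114 ± 15.3, SD) and 50.8, 61.7 and 53.8 CPM with CC-115. That is a log2 difference of -1.04 ± 0.12 (adjusted p = 6.32e-08), with every CC-115 library below every Ctrl library. SLC7A11 (ENSG00000151012, chr4:139085251-139163503) read 176, 174 and 169 CPM in Ctrl and 244, 241 and 255 CPM with CC-115, a log2 difference of 0.51 ± 0.13 (adjusted p = 0.00175), again without overlap. The ratio of SLC7A11 to SLC7A5, per kb, moved from 0.647 to 0.883 in the Ctrl libraries to 1.92 to 2.36 in the CC-115 libraries. SLC3A2 itself (ENSG00000168003, chr11:62623518-62656352) was tight in both groups, at 213, 214 and 213 CPM in Ctrl and 247, 252 and 247 CPM with CC-115. Its log2 difference of 0.22 ± 0.12 was not called (adjusted p = 0.126). Without the 2 libraries that stand apart it was 0.22 with an adjusted p of 0.000114. Neither of those is in these groups, but both enter the estimate of the spread. It was also called higher when scaled on protein-coding genes (0.29, adjusted p = 0.0182) and with only the compared groups fitted (0.19, adjusted p = 0.00405).

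SLC1A3, the glutamate transporter, fell the most of the 10. It read 5.97, 6.47 and 7.38 CPM in Ctrl and 2.23, 1.83 and 2.15 CPM with CC-115, a log2 difference of -1.68 ± 0.14 (adjusted p = 2.55e-10). The neutral amino acid exchangers of the same family, SLC1A5 and SLC1A4, differed by -0.07 (95% interval -0.26 to 0.13) and 0.14 (-0.05 to 0.33). Neither was called, which does not show that they stayed equal. SLC7A1 and SLC43A1 were likewise not called, with differences of 0.19 (-0.12 to 0.49) and 0.10 (-0.08 to 0.29).

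With CC-223 most of the set was lower. Of the 10 genes 7 fell and 1 rose, while 12.9% of all genes were higher and 10.9% lower, and the median change was -0.66 against 0.07 over all genes. Scaling by the median of ratios kept the 7 lower calls and left none higher. It also moved the share of higher calls among all called genes from 54.2% to 45.9%. SLC7A11 fell to 83.5, 83.5 and 78.2 CPM, a log2 difference of -1.08 ± 0.13 (adjusted p = 2.02e-06). SLC7A5 fell to 53.9, 59.1 and 63.3 CPM (-0.96 ± 0.12, adjusted p = 3.56e-06). Their heavy chain SLC3A2 fell to 133, 131 and 133 CPM (-0.69 ± 0.12, adjusted p = 0.000139). Both light chains and the heavy chain were thus lower together, with no CC-223 library in the Ctrl range.

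The SLC1 family and SLC38A1 were also lower with CC-223. SLC1A4 (ENSG00000115902, chr2:65215611-65250999) read 8.13, 9.35 and 9.08 CPM against 16.3, 16.3 and 17 CPM in Ctrl, a log2 difference of -0.90 ± 0.10 (adjusted p = 4.42e-07). SLC1A5 (chr19:47278140-47291851) read 95.8, 97.1 and 105 CPM against 137, 149 and 152 CPM (-0.56 ± 0.09, adjusted p = 0.000107). SLC38A1 (chr12:46576846-46663800) read 270, 262 and 255 CPM (-0.63 ± 0.10, adjusted p = 5.37e-05). In these 3 genes too the groups did not overlap. SLC38A2 was not called, with a difference of 0.07 (95% interval -0.21 to 0.34), so the ratio of SLC38A2 to SLC38A1 was 2.81 to 2.84 per kb with CC-223. SLC7A1 was not called either (-0.12, interval -0.42 to 0.19). SLC43A1, the branched-chain amino acid facilitator, was the 1 higher call, at 205, 206 and 214 CPM against 176, 177 and 170 CPM in Ctrl (0.26 ± 0.09, adjusted p = 0.0364). That call was lost when any 1 library of its groups was left out (adjusted p 0.151 to 0.235), with no filter on low counts (0.326) and with DESeq2 (0.0506).

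NU7441 gave no called change in the 10 genes. In edgeR 0 of 10 passed, 2 (SLC7A5 and SLC1A3) had an unadjusted p under 0.05, as did 17.1% of all genes, and DESeq2 also called 0, while 2.28% of all genes were higher and 1.11% lower. The largest differences were SLC1A3 at -0.30 (95% interval -0.57 to -0.02) and SLC7A5 at -0.26 (-0.51 to -0.01). SLC3A2 read 195, 188 and 191 CPM against 213, 214 and 213 CPM in Ctrl, so these groups did not overlap although the difference of -0.16 ± 0.12 was not called (adjusted p = 0.543). Without the 2 libraries that stand apart, 4 were called: SLC38A2 higher at 0.17, and SLC7A11, SLC3A2 and SLC38A1 lower at -0.19, -0.16 and -0.20. Over all genes the same fit, in which the filter on low counts was run anew, called 5011, against 776 of 22860 with those libraries. The 4 are read against that count of 5011.

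**Figure D2:**
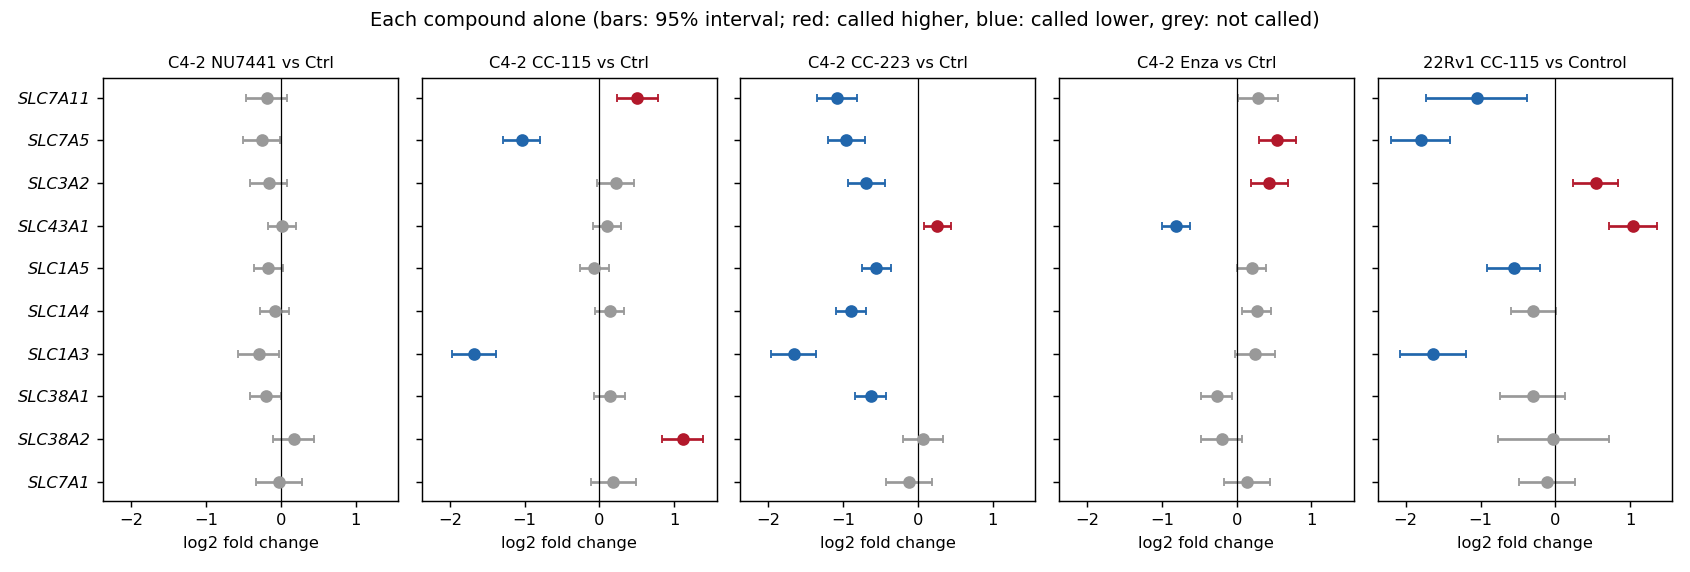
Log2 difference from Ctrl of each transporter with NU7441, CC-115, CC-223 and Enza in C4-2, and from Control with CC-115 in 22Rv1; bars are 95% intervals, red points were called higher, blue lower, and grey were not called. CC-223 lies left of 0 for 8 of the 10 genes, CC-115 splits SLC38A2 and SLC7A11 (right) from SLC7A5 and SLC1A3 (left), and Enza has SLC43A1 farthest left at -0.81.

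The 3 kinase inhibitors were given at the same dose and time, so they were also compared directly. CC-115 against CC-223 had 6 of 10 transporters higher and 0 lower, while 20.5% of all genes were higher and 22.7% lower. SLC1A4 was higher with CC-115 by 1.04 ± 0.10 (adjusted p = 2.63e-09), SLC38A2 by 1.05 ± 0.13 (4.16e-07) and SLC3A2 by 0.91 ± 0.12 (7.81e-07). SLC7A11, SLC38A1 and SLC1A5 were the other 3. SLC7A5 and SLC1A3 were at similar levels in the 2 groups, with differences of -0.09 (95% interval -0.34 to 0.17) and -0.01 (-0.34 to 0.32). NU7441 against CC-223 had 7 of 10 higher and 0 lower, against 3.2% and 4.12% of all genes. When the scaling used protein-coding genes only, that comparison had 7 higher and 1 lower. CC-115 against NU7441 had 4 higher (SLC38A2, SLC7A11, SLC3A2 and SLC38A1) and 2 lower (SLC1A3 and SLC7A5), against 24.5% of all genes in each direction. These comparisons share libraries with those against Ctrl and do not add independent evidence.

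Enzalutamide alone raised SLC7A5 and SLC3A2 and lowered SLC43A1. So 2 of 10 were higher and 1 lower, against 9.35% and 6.75% of all genes. SLC43A1 (ENSG00000149150, chr11:57252007-57283259) read 176, 177 and 170 CPM in Ctrl and 113, 92.6 and 91.7 CPM with Enza, a log2 difference of -0.81 ± 0.09 (adjusted p = 2.67e-07). SLC7A5 read 182, 157 and 158 CPM with Enza, all above the Ctrl libraries (0.54 ± 0.12, adjusted p = 0.00268), and was not called without the first Ctrl library (0.42, adjusted p = 0.0542) or with only the compared groups fitted (0.0527). SLC3A2 read 376, 254 and 237 CPM, a difference of 0.44 ± 0.12 (adjusted p = 0.0132). This call was lost when any 1 Ctrl library was left out (adjusted p 0.0569 to 0.0803) and with only the compared groups fitted (0.161). The SLC3A2 difference also rested largely on the first Enza library. Without that Enza library it was 0.17 (adjusted p = 0.277), and without both libraries that stand apart 0.20 (adjusted p = 0.00525). SLC7A11 showed the opposite dependence: at 152, 237 and 245 CPM it was not called (0.29 ± 0.13, adjusted p = 0.13), and without both libraries it was higher by 0.48 (adjusted p = 5.27e-06). The first Enza library was thus high for SLC3A2 and low for SLC7A11 and SLC38A2, the latter reading 287 CPM there and 477 and 456 CPM in its mates. SLC38A1 was below Ctrl without overlap but was not called (-0.26 ± 0.10, adjusted p = 0.0735). It was called lower by DESeq2 (0.0101) and with a stricter filter (0.0279).

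Added to each kinase inhibitor, enzalutamide again lowered SLC43A1 and raised SLC7A5. The SLC7A5 call on NU7441 did not hold with any 1 of its 6 libraries left out (adjusted p 0.0529 to 0.275) or with no filter on low counts (0.0578). On NU7441 these were the 1 lower and 1 higher call of 10 (2.75% of all genes higher, 3.32% lower), and on CC-223 also (5.66% and 6.76%). On CC-115 there were 2 higher and 4 lower calls (11.7% and 12.2%). Scaled on protein-coding genes the split there was 3 and 3, and the share of higher calls among all called genes went from 48.9% to 61.7%. The SLC43A1 difference was -0.97 ± 0.09 on NU7441, -1.55 ± 0.09 on CC-115 and -1.52 ± 0.09 on CC-223, and its lowest C4-2 levels were the 60.6, 64.2 and 67 CPM of CC-115+Enza. The fall was larger on CC-115 than on no inhibitor by 0.74 ± 0.13 (interaction, adjusted p = 0.000821) and on CC-223 by 0.71 ± 0.13 (adjusted p = 0.00509). The CC-115 interaction was not called when only the compared groups were fitted (-0.67, adjusted p = 0.102). The CC-223 interaction was not called without the third CC-223 library (adjusted p = 0.0614), without the first CC-223+Enza library (0.0588) or with no filter on low counts (0.0822). SLC7A5 rose by 0.43 ± 0.12 on NU7441, 0.88 ± 0.12 on CC-115 and 0.60 ± 0.12 on CC-223, and its interactions were not called (0.34 with an interval of -0.01 to 0.69 for CC-115).

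**Figure D3:**
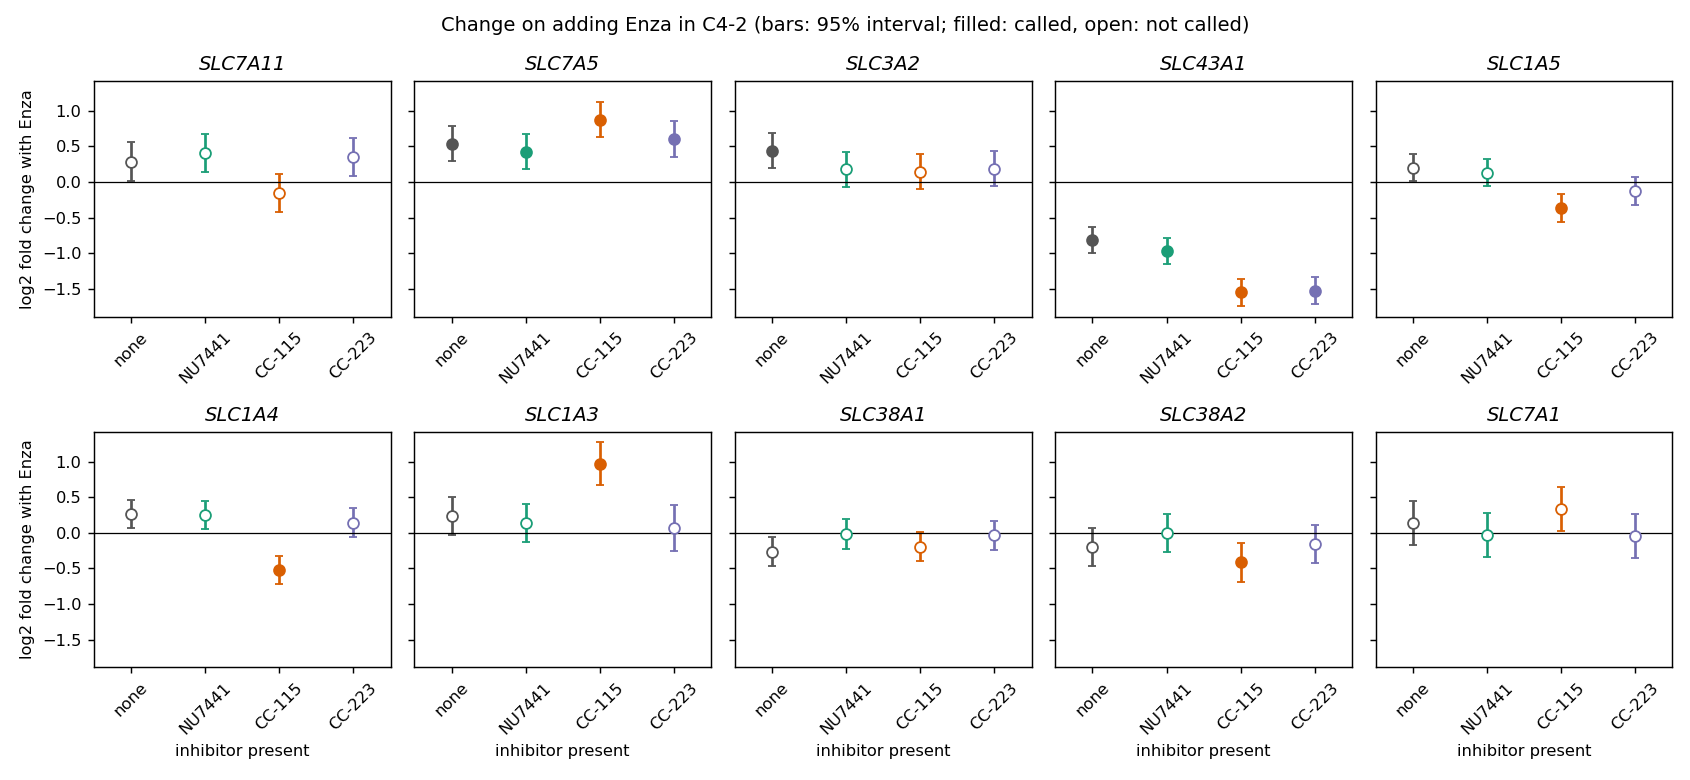
Log2 effect of Enza on each transporter without an inhibitor and on each of the 3 kinase inhibitors in C4-2, with 95% intervals; filled points were called and open ones were not. SLC43A1 lies below 0 on all 4 backgrounds, from -0.81 to -1.55, and SLC7A5 above 0 on all 4, from 0.43 to 0.88.

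Over the 10 genes the CC-115 by Enza interaction had 1 higher and 3 lower calls, against 0.993% and 2.27% of all genes. Of all genes called there 30.4% were higher, and 45.5% when scaled on protein-coding genes, where 1 member was higher and 2 lower. SLC1A4, at 17.8, 18.1 and 18.7 CPM with CC-115, read 12.2, 11.7 and 14 CPM with CC-115+Enza, while Enza alone left it at 20.4, 18.5 and 20.6 CPM against 16.3 to 17 in Ctrl. Its interaction was -0.79 ± 0.13 (adjusted p = 0.000588). The exchanger SLC1A5 had an interaction of -0.56 ± 0.13 (adjusted p = 0.0159) and SLC1A3 one of 0.73 ± 0.20 (adjusted p = 0.0356). Both of these were lost under several alternatives, SLC1A3 also under the replicate block (adjusted p = 0.0522). SLC1A3, low with CC-115 alone, read 4.08, 4.22 and 3.87 CPM in CC-115+Enza, below every Enza library and above every CC-115 library. SLC7A11 was not called at -0.44 ± 0.18 (adjusted p = 0.206) and was -0.69 (adjusted p = 1.8e-05) without the 2 libraries that stand apart. The CC-223 interaction called 0 higher and 1 lower, SLC43A1, against 0.127% and 0.249% of all genes. Scaling by the median of ratios moved the share of higher calls there from 33.7% to 44.4%. The NU7441 interaction called 0 members in edgeR, with 0 at an unadjusted p under 0.05 and 0 by DESeq2. Of all genes it called 0% in either direction, with 1548 of 22860 at an unadjusted p under 0.05.

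The inhibitors were also compared in the presence of enzalutamide. CC-223+Enza against Enza had 0 higher and 8 lower of 10, against 13% and 15% of all genes, with a median of -0.89 against 0.01 over all genes. SLC1A3 was lower by 1.84 ± 0.14 (adjusted p = 2.29e-09), at 2.07, 2.16 and 2.3 CPM against 7.16, 8.15 and 8.09 CPM. SLC1A4 fell by 1.02 ± 0.10, SLC7A11 by 1.02 ± 0.13 and SLC3A2 by 0.94 ± 0.12. SLC38A2 (0.11, interval -0.16 to 0.38) and SLC7A1 (-0.30, interval -0.60 to 0.01) were the 2 not called; without the 2 libraries that stand apart SLC7A1 was lower by 0.36 (adjusted p = 0.00412). CC-115+Enza against Enza had 2 higher (SLC38A2 and SLC7A1) and 5 lower (SLC7A5, SLC43A1, SLC1A5, SLC1A4 and SLC1A3), against 28.5% and 30.2% of all genes. SLC38A2 read 657, 818 and 795 CPM in CC-115+Enza, above every Enza library (0.90 ± 0.13, adjusted p = 2.21e-06). SLC7A1, the arginine carrier, read 504, 283 and 319 CPM against 258, 281 and 308 CPM. Its difference of 0.39 ± 0.15 (adjusted p = 0.029) was 0.03 (adjusted p = 0.809) without both libraries that stand apart. SLC3A2 turned its sign there, from -0.07 (adjusted p = 0.631) to 0.25 (adjusted p = 0.000354). NU7441+Enza against Enza had 0 called of 10 in edgeR, against 0.223% higher and 0.157% lower of all genes. There 5 of the 10 had an unadjusted p under 0.05, as did 15.6% of all genes, and DESeq2 called 1, SLC3A2.

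**Figure D4:**
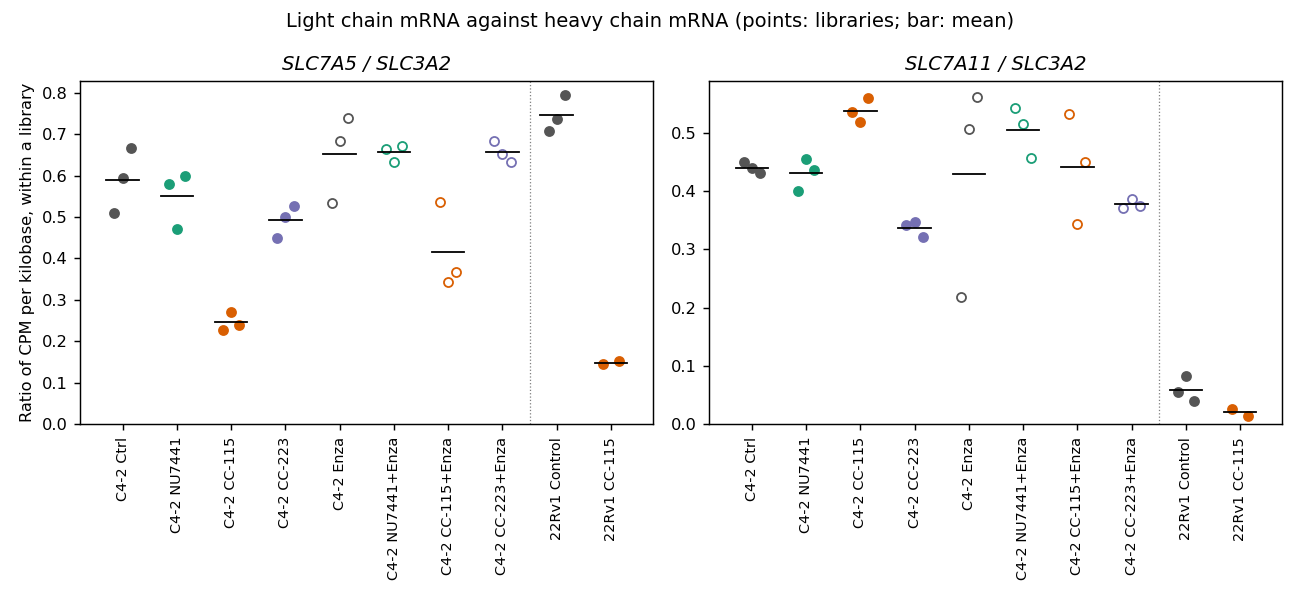
Ratio of each light chain, SLC7A5 (left) and SLC7A11 (right), to the heavy chain SLC3A2 within a library, from CPM per kb of exon on linear axes that start at 0, for the 10 groups; each point is 1 library, open with Enza, and each bar is a group mean. The ratio of SLC7A5 to SLC3A2 is 0.51 to 0.667 in C4-2 Ctrl and 0.227 to 0.27 with CC-115, and 0.708 to 0.796 in 22Rv1 Control and 0.145 to 0.151 with CC-115.

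The 2 untreated lines differed in all 10 transporters (5 higher and 5 lower in 22Rv1), but 38.6% of all genes were higher and 38.6% lower, and line and count table cannot be told apart. On the common scale of the joint fit, SLC1A4 stood at 13.9 ± 0.299 CPM in C4-2 Ctrl and 83 ± 3.49 CPM in 22Rv1 Control (SD, n = 3 each). SLC7A11 stood at 146 ± 3.61 and 26.9 ± 8.81 CPM, and SLC1A5 at 123 ± 6.12 and 291 ± 33.8 CPM. 22Rv1 thus had more of the neutral amino acid exchangers and less of the cystine transporter. SLC7A5, SLC3A2 and SLC1A3 were also higher in 22Rv1, by 0.82 ± 0.12, 0.48 ± 0.08 and 1.15 ± 0.12. SLC38A1, SLC43A1, SLC38A2 and SLC7A1 were lower, by -1.13 ± 0.13, -1.02 ± 0.09, -0.75 ± 0.23 and -0.64 ± 0.11. The SLC38A2 difference was not called with no filter on low counts (-0.80, adjusted p = 0.0927), and was -0.50 with a term for library size, an alternative chosen after seeing the data.

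In 22Rv1, CC-115 lowered SLC7A5, SLC1A3, SLC7A11 and SLC1A5 and raised SLC43A1 and SLC3A2, so 2 of 10 were higher and 4 lower, against 20.2% and 20.7% of 19392 genes. SLC7A5 read 131, 136 and 162 CPM in Control and 35.5 and 46.6 CPM with CC-115 (-1.80 ± 0.17, adjusted p = 0.000327). SLC1A3 read 10.7, 10.9 and 9.47 CPM against 3.09 and 3.57 CPM (-1.64 ± 0.19, adjusted p = 0.000644). SLC43A1 read 58.4, 59.4 and 64.7 CPM against 110 and 140 CPM (1.04 ± 0.14, adjusted p = 0.00116). In these 3 genes the groups were well apart. SLC3A2 read 204, 203 and 225 CPM against 271 and 341 CPM (0.54 ± 0.13, adjusted p = 0.0131). This call was lost without Control 1, Control 2 or CC-115 2 (adjusted p 0.0574, 0.0549 and 0.0668). SLC7A11 read 20.9, 30.9 and 16.2 CPM against 12.7 and 9.12 CPM (-1.05 ± 0.29, adjusted p = 0.0223), and the call was lost without Control 2 or CC-115 2 (adjusted p 0.0632 and 0.118). SLC1A5 (-0.56 ± 0.15, adjusted p = 0.0218) was not called without CC-115 1 (adjusted p = 0.0775).

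Some of the spread in 22Rv1 followed library size. The 2 smaller libraries, Control 3 and CC-115 2 (31606952 and 31773580 counts), were the lower ones of their groups for SLC38A2, which read 210, 247 and 132 CPM in Control and 257 and 129 CPM with CC-115, and for SLC7A11. SLC38A2 was not called (-0.03, interval -0.76 to 0.71), so 22Rv1 does not give a firm value for the gene that rose most in C4-2. A term for library size, chosen after seeing the data and leaving only 2 residual degrees of freedom, gave 9 of 10 calls, while it called 11729 of all 19392 genes against 7925 without it. SLC1A4, SLC38A1 and SLC7A1 were then lower at -0.33, -0.24 and -0.17.

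Tested directly, the response to CC-115 differed between the lines in 7 of the 10 genes, with 2 higher and 5 lower in 22Rv1 than in C4-2, against 15.2% and 12.3% of 22922 genes. Scaled by the median of ratios the split was 1 and 5. With each library left out in turn, 3 to 7 were called. The calls of SLC1A4, SLC1A5, SLC3A2 and SLC38A2 were each lost without any 1 of the C4-2 libraries. Those of SLC43A1, SLC7A11 and SLC7A5 held with each library left out. SLC43A1 rose in 22Rv1 and was not called in C4-2, and the effect differed by 0.98 ± 0.13 (adjusted p = 0.000105). SLC7A11 fell in 22Rv1 and rose in C4-2, a difference of -1.50 ± 0.28 (adjusted p = 0.00171). SLC7A5 fell in both lines, and by 0.71 ± 0.19 more in 22Rv1 (adjusted p = 0.0122). SLC1A3 fell in both, with a difference between the lines of 0.08 (interval -0.33 to 0.50).

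**Figure D5:**
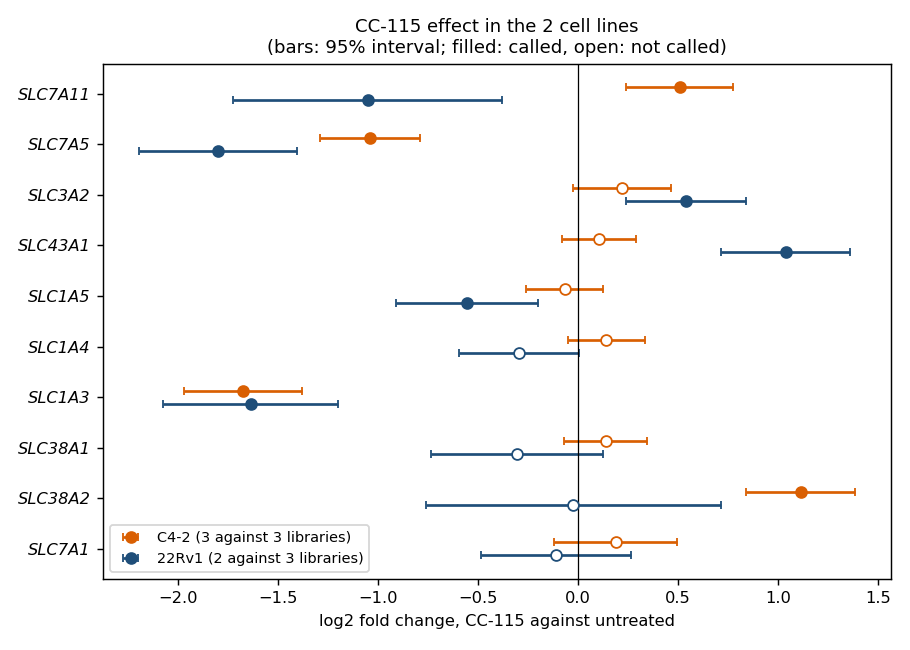
Log2 difference between CC-115 and untreated cells for each transporter (rows) in C4-2 (orange) and 22Rv1 (blue), with 95% intervals; filled points were called and open ones were not. SLC7A5 and SLC1A3 lie left of 0 in both lines, and SLC7A11 lies at 0.51 in C4-2 and -1.05 in 22Rv1.

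Reads of SLC7A5 can be split with copies of it elsewhere in the genome, and how alike these are was not measured. SLC7A5P2 had 0 counts in every library. SLC7A5P1 was added after its values were seen. SLC7A5P1 took counts equal to 2.51 to 3.36% of those of SLC7A5 in Ctrl and 21 to 28.8% with CC-115, and 2.17 to 2.8% and 26.2 to 30.2% in 22Rv1. SLC7A5P1 rose with CC-115 by 2.01 ± 0.20 in C4-2 (adjusted p = 3.37e-09) and by 1.69 ± 0.22 in 22Rv1 (adjusted p = 0.000922), where SLC7A5 fell. With both summed, the log2 ratio of mean CPM was -0.77 in C4-2 and -1.47 in 22Rv1, against -1.04 and -1.80 for SLC7A5 alone. In CC-115+Enza SLC7A5P1 took 14 to 26.2% of the SLC7A5 counts, against 1.88 to 3.02% in Enza. It rose there by 2.20 ± 0.20 (adjusted p = 4.74e-10). Summed, CC-115+Enza against Enza gave -0.50, against -0.70 for SLC7A5 alone. The part of read assignment in these falls was not tested. SLC7A11 shares 865 exon bases with the antisense gene SLC7A11-AS1, whose counts were 1.65 to 3.88% of those of SLC7A11 in C4-2 and 0 to 2.36% in 22Rv1.

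Other amino acid transporters of the plasma membrane were given by a list of 30, of which 17 passed the filter on low counts in C4-2 and 21 in 22Rv1. Over all genes 27.6% were higher and 26% lower with CC-115, 12.9% and 10.9% with CC-223, 2.28% and 1.11% with NU7441, 9.35% and 6.75% with Enza, and 20.2% and 20.7% with CC-115 in 22Rv1, and the list counts are to be read against these shares. With CC-115 5 of the 17 rose and 8 fell (median -0.58), with CC-223 0 rose and 4 fell, with NU7441 1 rose and 2 fell, and with Enza 4 rose and 2 fell. The largest changes with CC-115 were in SLC6A19 (-3.99 ± 0.84), SLC16A10, the aromatic amino acid transporter TAT1 (-2.98 ± 0.14), SLC7A9 (2.89 ± 0.27) and SLC7A2, the cationic transporter CAT2 (-2.68 ± 0.11). SLC16A10 and SLC7A2 also fell with CC-223, by 1.17 ± 0.13 and 0.87 ± 0.11. In 22Rv1 1 of 21 rose and 6 fell, SLC16A10 by 1.85 ± 0.34 and SLC7A2 by 1.05 ± 0.18.

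Genes of the ATF4 response were set beside the transporters because several of the 10 belong to it. With CC-223 1 of 27 rose and 17 fell (median -0.52, against 0.07 over all genes, of which 12.9% rose and 10.9% fell), led by CHAC1 (-2.87 ± 0.18), which breaks down glutathione, DDIT4 (-1.44 ± 0.17), SESN2 (-1.30 ± 0.12) and PSAT1 (-1.22 ± 0.12), an enzyme of serine synthesis. With CC-115 8 rose and 10 fell, where 27.6% of all genes rose and 26% fell, and the list median was -0.02 against 0.03: ATF4 itself rose by 2.01 ± 0.18, DDIT3 by 2.37 ± 0.18 and PPP1R15A by 2.90 ± 0.23, while DDIT4, an inhibitor of mTORC1, fell by 3.17 ± 0.18. In 22Rv1 5 rose and 14 fell (median -0.46, against -0.02 over all genes), where 20.2% of all genes rose and 20.7% fell. PPP1R15A was at 3.03 ± 0.16 there, CHAC1 at -2.47 ± 0.20 and ATF4 at 1.74 ± 0.11. Enza gave 7 rises and 3 falls, against 9.35% and 6.75% of all genes. NU7441 gave 0 and 2, against 2.28% and 1.11%. ATF4 messenger RNA differed by -0.46 ± 0.17 with CC-223 and was not called (adjusted p = 0.0508).

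Across the 24 C4-2 libraries some transporters ran alongside other genes, compared by Pearson correlation of log2 CPM over 11423 genes. The libraries share treatments and depth, so these are descriptions without a test. SLC3A2 was most like SESN2 (r = 0.971) and TRIB3 (0.958), and SLC7A11 was most like CARS1 (0.881), the cysteinyl-tRNA synthetase. SLC43A1 was most like GNMT (0.981) and HPGD (0.979). SLC1A5 was most like SLC1A4 (0.939), the closest pair among the 10, and SLC38A2 was most like UBXN2B (0.969). Among the 10, SLC7A5 ran against SLC38A2 (r = -0.576) and SLC43A1 (-0.505).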

How the data were processed

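Total RNA of 2 cell lines was sequenced in 29 libraries made with a kit that keeps strand, per the labels' protocols. The deposited tables hold raw read counts per gene, made by the authors with STAR 2.5.2a and featureCounts 1.5.0-p3 on hg19, per the submitters' processing notes, which also name DESeq2 1.14.1. Neither the strand setting nor the annotation release was given in the sources used here. The 10 genes and the lists were chosen with earlier results of these data known.

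Counts were tested with edgeR 4.0.16 (limma 3.58.1, R 4.3.3): filterByExpr, TMM scaling, a robust quasi-likelihood F-test with 1 coefficient per group, and Benjamini-Hochberg adjustment over all genes, called at 0.05. C4-2 (24 libraries, 8 groups), 22Rv1 (5 libraries), and C4-2 Ctrl and CC-115 with 22Rv1 were fitted separately. SE is the log2 difference over the root of F. CPM use TMM library sizes, and correlations a prior count of 2. Named besides the 10 were label checks, up to 4 called genes of largest change per list and single-compound comparison, ATF4, and up to 3 genes most like each transporter; SLC7A5P1 and overlapping genes were added after their values were seen. The test recovered known changes on simulated counts for CC-115 against untreated cells in each line. The simulation used the same spread for every gene and held no library that stands apart. It does not cover the interactions or the joint fit. Alternatives were other scalings and filters, DESeq2 1.42.0, a replicate block, only the groups compared, each library left out, and, for 22Rv1, library size. Replicate numbers did not pair the samples.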

Additional observations from a re-analysis of the deposited data

Results flagged for a closer look

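The effect of CC-115 differed between 22Rv1 and C4-2 in 7 of the 10 transporters by the interaction test of edgeR. On the log2 scale, as the 22Rv1 effect minus the C4-2 effect, the differences were -1.50 for SLC7A11, -1.08 for SLC38A2, -0.71 for SLC7A5, -0.44 for SLC1A5, -0.39 for SLC1A4, 0.37 for SLC3A2 and 0.98 for SLC43A1. SLC7A11, the cystine transporter, is the 1 of these that was called in opposite directions in the 2 lines. The SLC38A2 difference (adjusted p = 0.0378) rests on 22Rv1 libraries that lie far apart: it was -0.73 without CC-115 2 and -1.70 without CC-115 1. The SLC38A2 call was also lost when any 1 C4-2 library of the fit was left out (adjusted p 0.0533 to 0.0721). It was lost too without Control 1 or Control 2 (0.0717 and 0.0941) and with no filter on low counts (0.237). SLC1A4 (adjusted p = 0.033), SLC1A5 (0.0372) and SLC3A2 (0.0338) were lost when any of several libraries was left out, SLC3A2 also by DESeq2 (0.0757). Line and count table cannot be told apart in these differences. With a term for library size, SLC38A1 (-0.32, adjusted p = 0.00694) and SLC7A1 (-0.30, adjusted p = 0.0241) were called as well, and 9132 of all 22922 genes were called against 6301 without the term.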

How the results depend on the processing

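The number of the 10 transporters called changed with the libraries and groups fitted. Without Enza 1 and CC-115+Enza 1 it was 4 in place of 0 for NU7441 against Ctrl, 5 in place of 3 for Enza against Ctrl, 2 in place of 0 for NU7441+Enza against Enza, 5 in place of 2 for NU7441+Enza against NU7441, and 5 in place of 2 for CC-223+Enza against CC-223. Fitted on the compared groups only it was 1, 1, 4 and 6 for NU7441 against Ctrl, Enza against Ctrl, NU7441+Enza against NU7441 and CC-223+Enza against CC-223, and 1 in place of 4 for the CC-115 by Enza interaction. A stricter filter gave 5 for Enza against Ctrl. No filter gave 1 for NU7441+Enza against NU7441, 2 for the CC-115 by Enza interaction and 0 in place of 1 for the CC-223 by Enza interaction. DESeq2 gave 1 for NU7441+Enza against Enza. With each library left out in turn the counts were 1 to 4 for Enza against Ctrl, 0 to 1 for NU7441+Enza against Enza, 1 for NU7441+Enza against NU7441, 2 to 4 and 0 to 1 for the CC-115 and CC-223 interactions, and 3 to 7 for the difference between lines. The causes were not tested. SLC3A2 in CC-115+Enza against Enza turned from -0.07 to 0.25 without both libraries and ranged from -0.15 to 0.22 with 1 library left out.

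Without both libraries these were also called: SLC1A3 (adjusted p = 0.0364) and SLC7A11 (0.0489) in NU7441+Enza against Enza, SLC1A4 (0.0209), SLC3A2 (0.00711) and SLC7A11 (1.36e-05) in NU7441+Enza against NU7441, SLC7A11 (0.0389) and SLC3A2 (0.000954) in CC-115+Enza against CC-115, SLC7A11 (9.83e-05), SLC3A2 (0.00325) and SLC38A2 (0.0281) in CC-223+Enza against CC-223, SLC38A1 (0.0425) in CC-115+Enza against Enza, SLC1A4 (0.0405) in Enza against Ctrl, SLC38A2 (-0.32, 0.0158) in the CC-115 by Enza interaction, SLC43A1 in CC-115 (0.00934) and NU7441 (0.000353) against CC-223, SLC7A1 in CC-115 against CC-223 (0.00373) and NU7441 (0.0358), and SLC1A4 (0.012) in CC-115 against NU7441. Scaling on protein-coding genes moved the median of all genes by 0.10 (log2) for CC-115+Enza against CC-115, 0.16 for CC-115+Enza against Enza and -0.14 between the untreated lines. Over all genes the counts called moved by more than 1.5 times, in the order only the compared groups, then without both libraries: NU7441 against Ctrl 776 to 2706 and 5011 (1287 with a stricter filter), CC-223 against Ctrl 5456 to 9382 and 9900, NU7441 against CC-223 1672 to 4228 and 5823, NU7441+Enza against NU7441 1389 to 2759 and 3632, CC-223+Enza against CC-223 2839 to 7456 and 6145, the CC-115 by Enza interaction 747 to 166 and 1425. On the compared groups alone, Enza against Ctrl went from 3679 to 1053, CC-115+Enza against CC-115 from 5451 to 1908, CC-115+Enza against Enza from 13415 to 8115 and CC-223+Enza against Enza from 6398 to 3863. NU7441+Enza against Enza went from 87 to 0 on the compared groups alone, 598 without both libraries, 619 with no filter, 148 with a stricter filter, 301 with DESeq2 and 43 with a replicate block. The CC-223 by Enza interaction went from 86 to 201 with no filter, 134 with a stricter filter, 176 with DESeq2 and 444 without both libraries, and the NU7441 interaction from 0 to 23 with no filter and 3 without both libraries.

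Replicate numbers did not pair the samples: no comparison had every same-numbered pair correlated above 0.1, and in 22Rv1 the pairs had r of -0.363 and 0.297. Each sample was closest to its own number in 3 of 3 pairs for NU7441 against Ctrl alone. The replicate block called 4 transporters for CC-115 against Ctrl, 7 for CC-223 against Ctrl, 3 for Enza against Ctrl, 3 for the CC-115 by Enza interaction and 7 for CC-115 in 22Rv1. It ended the calls of SLC43A1 for CC-223 (adjusted p = 0.0543) and SLC1A3 for the CC-115 interaction (0.0522), and added SLC38A1 in 22Rv1 (-0.44, adjusted p = 0.0442). Depth limits SLC1A3, with as few as 57 counts.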

Other observations

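Lists of genes that handle amino acids inside the cell were counted in the same comparisons, and no test of the lists as groups was made. Of 20 genes of glutathione and NRF2, 3 rose and 12 fell with CC-115 in C4-2 (median -0.64), among them NQO1 (-1.83 ± 0.14), PRDX1 (-1.52 ± 0.16) and SRXN1 (-1.21 ± 0.24), while GCLC, the catalytic subunit of the first enzyme of glutathione synthesis, rose by 1.14 ± 0.10. In 22Rv1 2 rose and 11 fell, including PRDX1 (-1.57 ± 0.13) and TXNRD1 (-1.40 ± 0.15). With CC-223 1 rose and 3 fell, with Enza 2 and 0, and with NU7441 0 and 0. All counts here are to be read against the shares of all genes: 27.6% higher and 26% lower with CC-115, 12.9% and 10.9% with CC-223, 9.35% and 6.75% with Enza, 2.28% and 1.11% with NU7441, and 20.2% and 20.7% with CC-115 in 22Rv1.

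Of 17 enzymes of glutamine and glutamate, 4 rose and 6 fell with CC-115, 2 rose and 8 fell with CC-223, 1 rose and 3 fell with Enza, and 0 moved with NU7441. CTPS1, which makes CTP with glutamine, fell by 1.33 ± 0.10 with CC-115 and by 0.57 ± 0.10 with CC-223, and ASNS, the asparagine synthetase, fell by 0.91 ± 0.12 with CC-223. In 22Rv1 5 rose and 7 fell, ASNS by 1.58 ± 0.17. Of 14 genes of branched-chain and aromatic amino acid breakdown, 5 rose and 5 fell with CC-115, 4 and 2 with CC-223, 0 and 3 with Enza, 0 and 0 with NU7441, and 2 and 5 in 22Rv1. BCAT1, the cytosolic branched-chain aminotransferase, fell by 1.34 ± 0.15 with CC-115, by 1.31 ± 0.15 with CC-223 and by 3.49 ± 0.40 in 22Rv1.

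Of 9 lysosomal amino acid transporters, 3 rose and 0 fell with CC-115, led by SLC36A4 (1.53 ± 0.12), 1 and 0 with CC-223, 1 and 2 with Enza, 0 and 0 with NU7441, and 2 and 0 in 22Rv1. Of 12 mitochondrial carriers, 3 rose and 7 fell with CC-115, with the serine carrier SFXN1 at -1.20 ± 0.12; 1 and 5 moved with CC-223, 1 and 2 with Enza, 2 and 0 with NU7441, and 3 and 4 in 22Rv1. Of 29 genes of amino acid sensing upstream of mTORC1, 6 rose and 7 fell with CC-115, 3 and 3 with CC-223, 4 and 3 with Enza, 0 and 0 with NU7441, and 7 and 9 in 22Rv1. Of 9 genes of ubiquitin control of transporters, 7 rose and 2 fell with CC-115, 3 and 0 with CC-223, 0 and 2 with Enza, 0 and 0 with NU7441, and 1 and 2 in 22Rv1.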
